A study of Mus musculus with 2207 samples.

Results

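Activity-regulated effectors are genes that neurons switch on after synaptic input and whose products act at the synapse or feed back on signalling. The 10 members described here are Arc, Bdnf, Homer1, Nptx2, Npas4, Nr4a1, Btg2, Ptgs2, Dusp1 and Vgf, taken by gene symbol from 52636 genes in the tables of values. They are activity-induced genes other than the AP-1 and Egr transcription factors, named by a rule that uses no measured value, although earlier results of these data were known when they were chosen. All 10 were measured in each of 2207 single nuclei of mouse frontal cortex by RamDA-seq, a full-length single-nucleus RNA sequencing method.

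The nuclei, 730 in 96-well and 1477 in 384-well plates, came from 6 pools of male C57BL/6 mice (the methods of the study give the substrain J) of 14 weeks of age, each pool made from 3 mice. In the 96-well plates, the WT pool was Ehmt1+/+ and the Het pool was Ehmt1delta/+, which carries 1 deleted allele of Ehmt1, the gene of the histone H3 lysine 9 methyltransferase GLP. In the 384-well plates, WT was labelled Ehmt1+/+ with the Ehmt1 iTg transgene but no CamKII-CreER, and Het was labelled Ehmt1delta/+ with the same transgene and no CamKII-CreER. The iTg pool was Ehmt1+/+ with transgene and CamKII-CreER, and the Het; iTg pool was Ehmt1delta/+ with both. Cre driven by CamKII acts in forebrain excitatory neurons. By the labels, every group was given tamoxifen (2 doses of 100 mg/kg, starting at 3 weeks of age), with a week between doses in the methods. The study also gave tamoxifen to a CAG-CreER series. For the mice of the single-nucleus RNA sequencing, its text mentions tamoxifen only for the CamKII-CreER series. It describes the WT and Het mice of that series as carrying CamKII-CreER, whereas their labels say that they do not. The labels are followed here. Mice of a pool cannot be told apart, so the pool, and not the nucleus, was the unit of replication.

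Values are RPKM, reads of a gene scaled by its length and by the reads of its nucleus, averaged over the nuclei of a pool. Neurons had a median of 323273 to 397880 reads per pool, as inferred from the steps of the RPKM values. Glia had 441702 to 510639 in the 96-well plates and 39940 to 54877 in the 384-well plates, so a value of 0 in a 384-well glial nucleus carries less information. Labelled neurons, microglia and oligodendrocytes carried their defining markers: the summed microglial list was at 1809 to 3364 RPKM in microglia and at most 12.2 RPKM in neurons and oligodendrocytes, and the oligodendrocyte list at 2170 to 4524 RPKM in oligodendrocytes. Ehmt1 itself was higher in neurons of the pools labelled Het (31.2, 31.7 and 33.9 RPKM) than in the other pools (18.7, 19.5 and 20.7 RPKM). This value over the whole gene does not read the deleted part alone, and the groups are named here by their labels.

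Calcium entering through NMDA receptors and L-type channels activates kinases that phosphorylate CREB and SRF-bound cofactors, and these switch on immediate-early genes within minutes. Npas4 and Nr4a1 encode transcription factors of this early wave. Arc, Homer1, Nptx2, Bdnf and Vgf encode synaptic or secreted proteins, and Dusp1 and Btg2 encode proteins that limit signalling and growth. Ptgs2 encodes cyclooxygenase-2, which makes prostaglandins and is found in forebrain excitatory neurons.

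The members lie on 7 chromosomes of mm10, and reads were counted over their exons. Coordinates are those of RefSeq for Npas4, Nr4a1 and Dusp1, whose GENCODE versions differ from the table of values, and of GENCODE for the others. Among the transcription factors, Npas4 is on chromosome 19 (4984353 to 5003439, minus strand) and Nr4a1 on chromosome 15 (101253902 to 101274795, plus strand). Among the synaptic and secreted products, Arc is on chromosome 15 (74669083 to 74672570, minus strand), Homer1 on chromosome 13 (93299635 to 93405129, plus strand) and Bdnf on chromosome 2 (109674700 to 109727007, plus strand). Nptx2 (144545902 to 144557478) and Vgf (137026392 to 137033351) are both on the plus strand of chromosome 5. Ptgs2 (150100031 to 150108227, plus strand) and Btg2 (134075170 to 134079120, minus strand) are on chromosome 1, and Dusp1 is on chromosome 17 (26505591 to 26508472, minus strand). The Homer1 value sums the short and the long isoforms. Bdnf overlaps an antisense gene, and the counting was not stated to use strand, so reads of the pair cannot be told apart. Homer1 overlaps the GENCODE genes Gm47075 and Gm47088 on its own strand, and the longer GENCODE model of Dusp1 overlaps 4 genes, among them Ergic1 on the other strand.

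RefSeq promoter sequence of GRCm38.p6 was matched for 7 members with 14 transcription starts, and Arc, Nptx2 and Vgf were not matched. The starts matched for Npas4, Nr4a1 and Homer1 lie inside the gene spans given above, and the upstream ends of those spans were not searched. Each window ran from 250 bases before to 50 bases after a start, and both strands were searched. The full cyclic AMP response element TGACGTCA, bound by CREB, was in 1.79% of all 32851 windows and in those of Btg2 and Dusp1. Its half-site TGACG, which also lies inside the full element, was in 20.8% of all windows and in those of Btg2, Dusp1, Npas4, Nr4a1, Ptgs2, the upstream start of Homer1 and 1 of the 7 starts of Bdnf. TATAAA (13.6% of windows), the CArG box of SRF (1.63%) and the MEF2 box (3.19%) were in none of the 14. Shown here, 5′ to 3′ and as the 250 bases before the start, are the 5 promoters with 2 or more half-sites. The share of all windows with 2 or more was not counted, and both half-sites of Btg2 lie in its full element. A link between these sites and the levels was not tested. Capitals mark the half-sites on either strand, and where a full element is present they join into TGACGTCA.
Npas4 (chr19:4989972-4990221, minus strand): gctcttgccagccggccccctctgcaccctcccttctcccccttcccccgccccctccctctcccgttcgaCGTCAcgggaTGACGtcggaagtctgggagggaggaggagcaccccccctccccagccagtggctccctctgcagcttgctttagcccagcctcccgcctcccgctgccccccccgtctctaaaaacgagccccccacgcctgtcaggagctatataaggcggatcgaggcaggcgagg
Nr4a1 (chr15:101266596-101266845, plus strand): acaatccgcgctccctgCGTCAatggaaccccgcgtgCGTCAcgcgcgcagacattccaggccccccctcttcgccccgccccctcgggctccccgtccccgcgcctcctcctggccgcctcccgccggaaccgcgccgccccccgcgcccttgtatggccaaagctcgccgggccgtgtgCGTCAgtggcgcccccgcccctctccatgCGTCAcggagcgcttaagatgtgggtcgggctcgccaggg
Btg2 (chr1:134079156-134079405, minus strand): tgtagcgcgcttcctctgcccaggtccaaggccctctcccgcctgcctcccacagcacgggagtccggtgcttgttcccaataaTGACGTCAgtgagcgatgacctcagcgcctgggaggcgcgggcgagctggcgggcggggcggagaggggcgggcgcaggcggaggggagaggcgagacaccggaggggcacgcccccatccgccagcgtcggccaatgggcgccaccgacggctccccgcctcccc
Dusp1 (chr17:26508473-26508722, minus strand): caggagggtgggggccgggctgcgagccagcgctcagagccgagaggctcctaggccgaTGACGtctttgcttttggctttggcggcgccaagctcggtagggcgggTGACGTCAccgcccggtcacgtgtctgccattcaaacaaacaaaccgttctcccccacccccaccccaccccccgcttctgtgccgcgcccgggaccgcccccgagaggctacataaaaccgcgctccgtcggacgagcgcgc
Homer1 (chr13:93303507-93303756, plus strand): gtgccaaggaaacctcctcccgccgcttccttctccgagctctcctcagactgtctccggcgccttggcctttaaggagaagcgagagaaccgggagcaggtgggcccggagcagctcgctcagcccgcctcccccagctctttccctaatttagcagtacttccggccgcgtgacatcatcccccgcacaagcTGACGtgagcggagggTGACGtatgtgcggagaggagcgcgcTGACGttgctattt
Counted from the start, the full element began at position -166 in Btg2 and -143 in Dusp1. A match is a description of letters and not a bound site.

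In neurons the members spanned a wide range of levels. Averaged over the 6 pools, Arc, which encodes a capsid-like regulator of AMPA receptor endocytosis, was highest at 74.998 RPKM ± 43.1 (SD, n = 6 pools). Nr4a1 followed at 56.2 RPKM ± 27.5 and Homer1, a postsynaptic scaffold that binds group I metabotropic glutamate receptors, at 32.9 RPKM ± 15.4. The order turned with the plate format: Arc was highest in each 384-well pool, whereas Homer1 was highest in both 96-well pools, at 40.2 and 59.5 RPKM against 30.3 and 14.5 RPKM of Arc in WT and Het. Npas4 was at 15.3 RPKM ± 7.33, Vgf at 15.1 RPKM ± 3.45, Nptx2 at 7.37 RPKM ± 1.36, Dusp1 at 6.28 RPKM ± 3.77 and Btg2 at 3.50 RPKM ± 1.73. Ptgs2, at 2.03 RPKM ± 0.576, and Bdnf, at 1.80 RPKM ± 0.541, were lowest and overlapped in range.

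**Figure D1:**
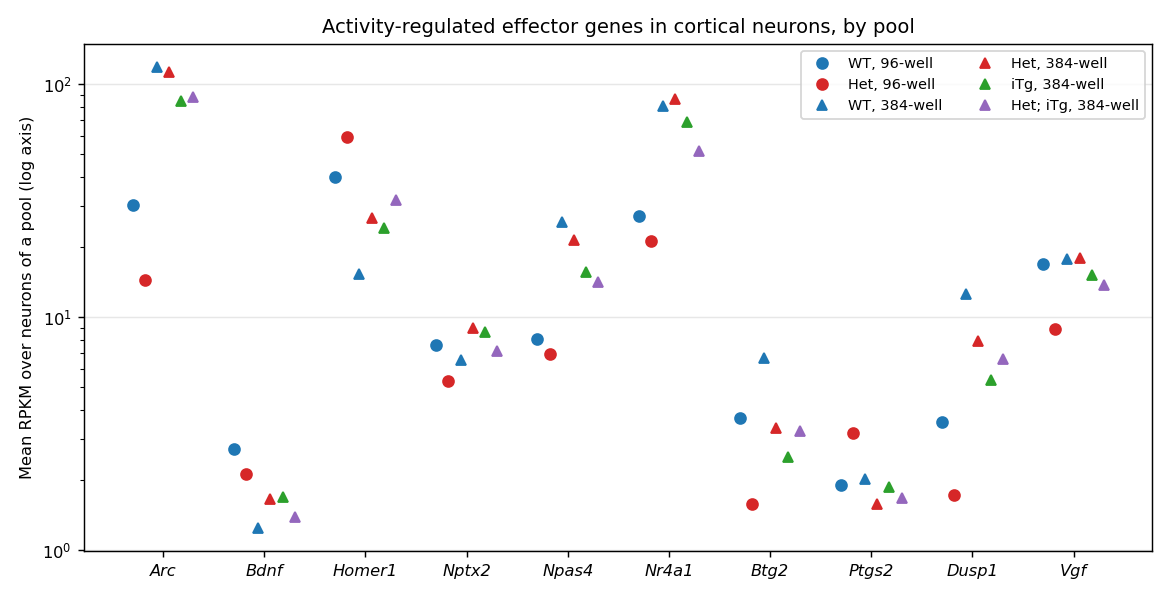
Mean RPKM of the 10 members over the neurons of each of 6 pools, on a log axis; circles are 96-well and triangles 384-well pools, coloured by genotype. Arc, Npas4, Nr4a1 and Dusp1 sit higher in all 4 of the 384-well pools than in both 96-well pools, and Homer1 and Bdnf sit lower. The share of all genes set apart in this way was not counted.

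The members also differed in how many neurons carried them. Homer1 was above 0 in 98.2% to 99.6% of neurons of a pool and Nr4a1 in 88.1% to 93.6%. Vgf, a secreted neuropeptide precursor, was above 0 in 79.6% to 90.5%, Arc in 74.04% to 84.2% and Npas4 in 68.7% to 78.8%. Dusp1 was found in 36.2% to 60.1% of neurons, Bdnf in 34.9% to 44.3%, Nptx2 in 33.7% to 42.7%, Btg2 in 26.9% to 42.7% and Ptgs2 in 18.9% to 39.2%. A neuron had a median of 6 or 7 of the 10 members above 0, depending on the pool. Thinning to 206720 reads, which left out 31 to 60 shallower neurons of each 384-well pool and none of the 96-well pools, moved these shares by at most 7.4 percentage points.

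How far expression was concentrated in few nuclei differed between members. The top 10% of neurons held 59.4% to 91.4% of all Ptgs2 signal of a pool, lowest in Het, 96-well, and highest in iTg. For Homer1 the same fraction of neurons held 33.3% to 41.9%, and for Nr4a1 29.01% to 49.3%. Bdnf, Nptx2, Btg2 and Ptgs2 had a median of 0 in every pool, whereas the median of Arc ran from 7.3 to 35.2 RPKM and that of Homer1 from 9.8 to 39.5 RPKM.

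Most members were neuronal, with 2 exceptions. Compared with oligodendrocytes, over the 6 pools with the pool as a block, 9 of 10 members were higher in neurons by limma with Benjamini-Hochberg adjustment, while 63.1% of all 30414 genes tested differed. All 9 were higher in 6 of 6 pools. Npas4 differed by 6.14 ± 0.45 on the log2(RPKM + 0.1) scale (SE; limma adjusted p = 2.24e-05), with 6.9 to 25.7 RPKM in neurons and 0 to 0.9 RPKM in oligodendrocytes. Nptx2, a pentraxin that clusters AMPA receptors, differed by 4.61 ± 0.56 and Vgf by 4.13 ± 0.30. Ptgs2 was listed at 0 in all 397 oligodendrocytes, which allows a share of nuclei with a read of up to 0.756%, and in every microglial nucleus, which allows 2.05%. These limits cover counting error only and do not bound the share of expressing cells, since the glia of the 384-well plates were shallow.

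Arc had the smallest difference of the 9, and it was present in oligodendrocytes. The oligodendrocyte mean was 15.9 RPKM in WT and 13.05 RPKM in Het of the 96-well plates, and 53.8, 33.6, 41.03 and 34.6 RPKM in WT, Het, iTg and Het; iTg of the 384-well plates. Neurons of the same pools had 30.3, 14.5, 118.7, 113.1, 85.1 and 88.3 RPKM, and the difference was 1.06 ± 0.22 (limma adjusted p = 0.00435). Arc was above 0 in 53.7% of the 397 oligodendrocytes, against 2.02% for Npas4. The oligodendrocyte Arc level was 29.7% to 90.2% of the neuronal level, whereas the summed neuron marker list in oligodendrocytes was 2.85% to 23.5% of its neuronal level, highest in WT, 96-well. In the 96-well pools alone, a test added after seeing the data, the Arc difference was 0.54 (limma adjusted p = 0.246), and with upper-quartile scaling of all 6 pools it was 0.61 (limma adjusted p = 0.0409). Neuronal RNA in glial wells was not tested as a source. Nr4a1 was also present in 33.2% of oligodendrocytes, at 3.4 to 13.1 RPKM.

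Dusp1, a phosphatase that switches off MAP kinases, did not differ between neurons and oligodendrocytes by this test. Its neuronal level was higher in 4 of 6 pools, with a difference of 0.41 ± 0.46 (limma adjusted p = 0.456), and with upper-quartile scaling it was -0.02. Its oligodendrocyte level was 2.6 to 5.5 RPKM. In the 96-well pools alone its difference was -0.93 and in the 384-well pools alone 1.09 (limma adjusted p = 0.0488).

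Btg2, which encodes an antiproliferative cofactor of the CCR4-NOT deadenylase, was the member with a microglial level above the neuronal one. Microglia had 29.2 RPKM in WT and 29.7 RPKM in Het of the 96-well plates, and 13.7, 2.4, 14.1 and 16.5 RPKM in WT, Het, iTg and Het; iTg of the 384-well plates. Neurons of the same pools had 3.7, 1.6, 6.7, 3.3, 2.5 and 3.2 RPKM. Microglia were therefore higher in 5 of 6 pools, the exception being Het, 384-well, with 19 microglia. The difference, neurons minus microglia, was -2.07 ± 0.58 (limma adjusted p = 0.0190). Leaving out WT, 96-well, iTg or Het; iTg raised the adjusted p of limma to 0.0549, 0.0511 and 0.0504, and the 384-well pools alone gave -1.34 (limma adjusted p = 0.122). In oligodendrocytes Btg2 was above 0 in 3.02% of nuclei.

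Against microglia, 8 of 10 members were higher in neurons, 1 was lower (Btg2) and Dusp1 did not pass, while 57.5% of all 31333 genes tested differed. Npas4 was at 6.21 ± 0.44, Nr4a1 at 5.76 ± 0.63 and Vgf at 5.41 ± 0.74. Arc differed by 3.82 ± 0.71, and microglia had 0.8 to 11.3 RPKM. The summed neuron marker list in microglia was 1.55% to 26.2% of its neuronal level, highest in WT, 96-well, and its part in the microglial values was not tested. The medians of all genes were 0.78 against oligodendrocytes and 1.003 against microglia on the same scale, and the medians of the members were 3.42 and 4.04. Upper-quartile scaling lowered the median of all genes to 0.42 and 0.86, and it changed no member's call in either comparison.

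**Figure D2:**
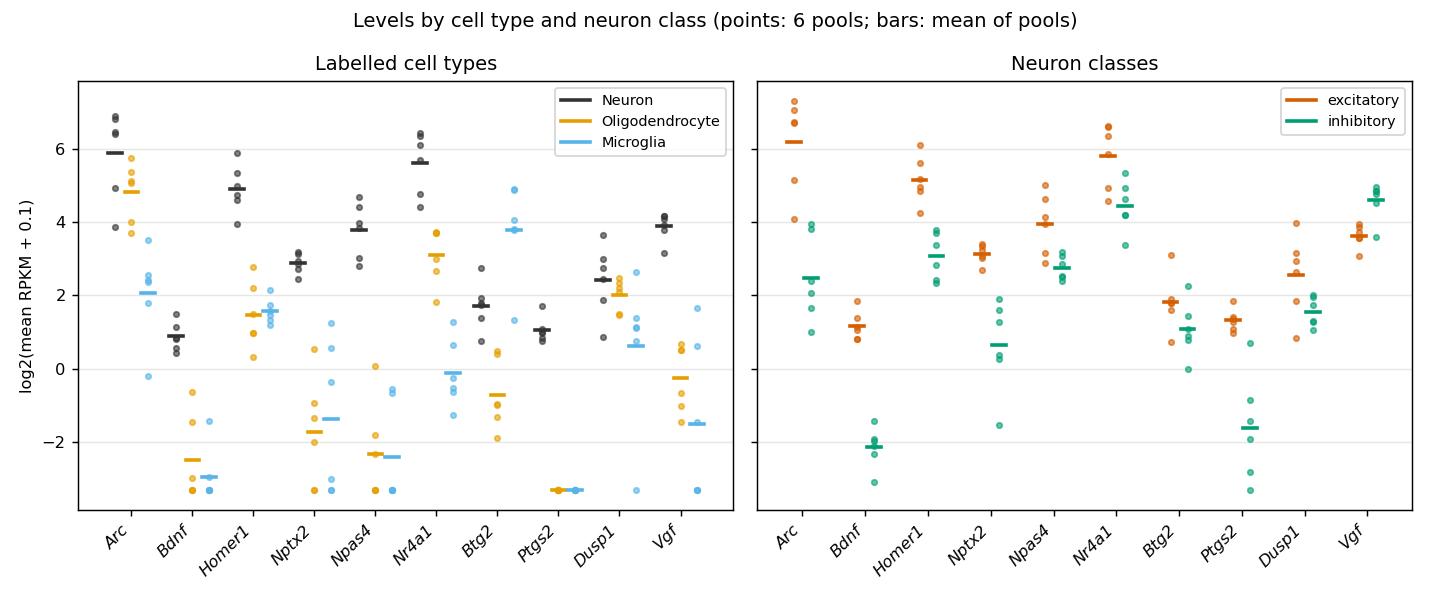
log2(mean RPKM + 0.1) of each member by labelled cell type (left) and by neuron class (right); points are the 6 pools and bars their mean. Arc in oligodendrocytes lies near the neuronal points, Btg2 is highest in microglia, and Vgf is the member with a higher inhibitory than excitatory level in 6 of 6 pools.

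Genes of the same pathways were counted from lists. Of all 30414 genes tested against oligodendrocytes, 14529 were higher in neurons and 4677 lower. Of 11 AP-1 and Egr factors, 8 were higher in neurons than in oligodendrocytes and 2 were lower. Of 40 partners and receptors tested, 27 were higher and 6 lower, led by the scaffold genes Shank3 (6.17 ± 0.36) and Shank2 (5.91 ± 0.50). Upstream signalling genes were higher in 26 of 37 and lower in 5, with the NMDA receptor gene Grin1 at 7.22 ± 0.26. Against microglia the lower partners included Ptgs1, the other cyclooxygenase (-6.55 ± 0.18). Ptgs1 and Ptgs2 thus had opposite directions in this comparison.

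Within neurons, class was set by the larger of Slc17a7, the vesicular glutamate transporter, and Gad1, the GABA-synthesising enzyme. A nucleus with neither above 0 or a tie was left unplaced, which concerned 0 to 2 neurons a pool. Of 10 members, 7 were higher in excitatory neurons and 1, Vgf, was lower, while 33.7% of all 31225 genes tested differed. The median of the members was 1.73 against -0.01 for all genes.

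Arc was mainly excitatory. Its excitatory mean was 35.2, 17.01, 160.1, 133.9, 105.03 and 106.6 RPKM in WT and Het, 96-well, and WT, Het, iTg and Het; iTg, 384-well. Its inhibitory mean in the same order was 15.4, 1.9, 3.1, 13.9, 5.1 and 4.1 RPKM. Every inhibitory value lay below every excitatory one, and the difference was 3.70 ± 0.56 (limma adjusted p = 0.00308). Bdnf, the ligand of the receptor TrkB, had 1.6 to 3.5 RPKM in excitatory and at most 0.3 RPKM in inhibitory neurons (3.31 ± 0.18, limma adjusted p = 6.57e-05). Ptgs2, listed at 0 in inhibitory neurons of iTg, differed by 2.94 ± 0.45, Nptx2 by 2.48 ± 0.39 and Homer1 by 2.09 ± 0.12. Nr4a1 (1.37 ± 0.18) and Npas4 (1.20 ± 0.27) differed less and were present in inhibitory neurons at 10.3 to 40.4 RPKM and 5.1 to 9.0 RPKM.

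Vgf went the other way. Its inhibitory mean was 28.7, 12.1, 27.3, 31.2, 28.7 and 23.1 RPKM in the same order, and its excitatory mean was 13.1, 8.3, 14.6, 15.3, 11.7 and 11.7 RPKM. Inhibitory neurons were higher in 6 of 6 pools, with a difference of -0.97 ± 0.11 (limma adjusted p = 9.49e-04). Btg2 and Dusp1 were higher in excitatory neurons in 4 of 6 pools and did not pass (0.75 ± 0.38 and 1.01 ± 0.34, limma adjusted p = 0.183 and 0.0610), and Dusp1 passed in the 384-well pools alone (1.60, limma adjusted p = 0.00556). Npas4 no longer passed among nuclei with only one of Slc17a7 and Gad1 above 0 (1.07, limma adjusted p = 0.0715). With the 96-well pools alone no gene passed, and the values of Btg2 and Dusp1 there were -0.31 and -0.16.

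Other activity-induced genes followed both directions: 24 of 48 tested were higher in excitatory and 7 in inhibitory neurons. The largest was Nrn1, which encodes the neurite growth protein neuritin (5.16 ± 0.42), and the opposite extreme was Crh, the corticotropin-releasing hormone gene (-4.23 ± 0.22). Of the AP-1 and Egr factors, 2 of 11 were higher (Egr3 at 2.21 ± 0.37 and Jun at 0.79 ± 0.15) and none was lower. Among partners, Nptx1 (4.10 ± 0.34) and Nptxr (1.91 ± 0.11), which form pentraxin complexes with Nptx2, were higher in excitatory neurons.

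Excitatory neurons were further placed in the layer class with the highest mean marker z-score, and the classes held 36 to 92 nuclei a pool. Of 10 members, 5 differed among the 4 classes by the F test of limma with the pool as a block, against 35% of 30555 genes tested. They were Arc, Homer1, Nr4a1, Ptgs2 and Dusp1. Arc was highest in layer VI or layer IV/Va, with 3 pools each, and lowest in layer V in 5 of 6 pools. Layer II/III was near layer V, at 62.9 and 64.04 RPKM averaged over the pools. In the 96-well pools Arc averaged 32.98 RPKM in layer IV/Va and 28.1 RPKM in layer VI, and in the 384-well pools 159.4 and 183.2 RPKM. The layer VI mean of Arc was 38.6, 17.6, 152.3, 245.1, 166.1 and 169.4 RPKM in the pool order above, and the layer V mean was 25.3, 11.9, 97.4, 138.8, 64.4 and 46.5 RPKM. The spread between the highest and lowest class mean was 0.98 (limma adjusted p = 0.00426).

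Ptgs2 was highest in layer II/III in 6 of 6 pools. Its layer II/III mean was 4.05, 5.24, 3.99, 2.96, 4.34 and 2.94 RPKM, and its layer V mean 1.79, 1.45, 2.48, 0.85, 0.97 and 1.61 RPKM. The spread was 1.36 (limma adjusted p = 0.00112). Dusp1 was highest in layer IV/Va in 5 of 6 pools, with a spread of 0.93 (limma adjusted p = 0.00648), and Nr4a1 likewise in 5 of 6, with 0.53 (limma adjusted p = 0.0236). Homer1 was highest in layer IV/Va in 4 of 6 pools and in layer VI in 2 (0.66, limma adjusted p = 0.0107). Its order turned with the plate format. In the 96-well pools Homer1 averaged 83.5 RPKM in layer VI and 58.3 RPKM in layer IV/Va, and in the 384-well pools 29.2 and 36.5 RPKM. The Nr4a1 call was lost without Het, 96-well, WT, 384-well, or Het; iTg, and the Homer1 call without iTg, and no member passed in the 96-well pools alone. Bdnf was lowest in layer VI in 5 of 6 pools but did not pass (limma adjusted p = 0.0601), and Npas4, Nptx2, Btg2 and Vgf did not pass either.

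**Figure D3:**
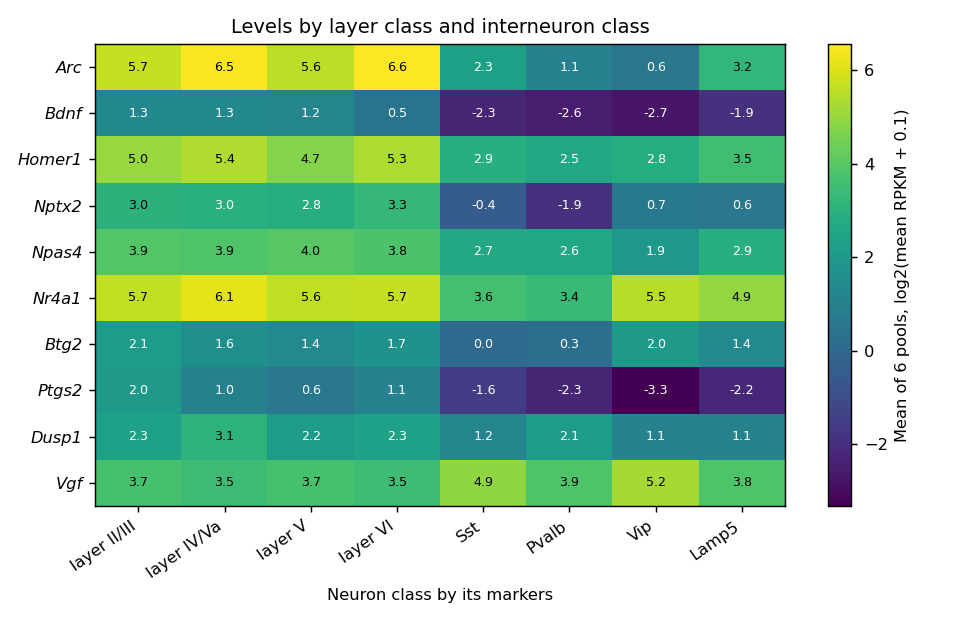
Mean over 6 pools of log2(mean RPKM + 0.1) for each member in the 4 layer classes of excitatory neurons and the 4 interneuron classes named by their largest marker. Ptgs2 is highest in layer II/III, and the averages of Vgf and Nr4a1 among interneurons are highest in the Vip class, an order that did not hold in the means of the 96-well pools.

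Interneurons were placed by the largest of Sst, Pvalb, Vip and Lamp5, and the Vip class held only 3 to 10 nuclei per pool. Here 3 of 10 members differed, against 20.1% of all genes tested. Nr4a1 averaged 60.3 RPKM over pools in Vip and 34.1 RPKM in Lamp5 neurons, and 14.8 and 10.9 RPKM in Sst and Pvalb neurons (limma adjusted p = 0.00468). Vgf averaged 42.9 RPKM in Vip and 32.9 RPKM in Sst neurons and 15.1 and 16.96 RPKM in Pvalb and Lamp5 neurons (limma adjusted p = 0.0161). The lead of the Vip class came from the 384-well pools, where Nr4a1 averaged 82.8 RPKM in Vip and 39.3 RPKM in Lamp5 neurons, and Vgf 52.9 RPKM in Vip and 35.4 RPKM in Sst neurons. In the 96-well pools the order turned, with Nr4a1 at 15.4 and 23.6 RPKM and Vgf at 22.8 and 27.9 RPKM. Arc averaged 18.5 RPKM in Lamp5 neurons and at most 5.3 RPKM in the others (limma adjusted p = 0.0259), with WT, 96-well, and Het, 384-well, at 50.4 and 36.9 RPKM and the other pools between 1.9 and 14.1 RPKM. The Lamp5 class of WT, 96-well, held 12 nuclei, among them the highest inhibitory nucleus of that pool, at 540.5 RPKM of Arc. That nucleus carried most of the class mean. Leaving out 1 pool left 1 to 3 members called: the Arc call was lost without WT, 96-well, or WT, iTg or Het; iTg of the 384-well plates, and the Vgf call without WT or iTg of the 384-well plates. No member passed in the 96-well pools alone.

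Neurons of the different plate formats also differed. In the comparison of 384-well with 96-well pools over WT and Het, with the Ehmt1 genotype as a block, 5 of 10 members were higher and 1 lower, while 42.3% of 31326 genes tested differed (3816 higher and 9438 lower). Plate format, the code in the sample titles and the transgene differ together between these sets, so they cannot be told apart. The median of all genes was -0.29, and that of the members 0.74.

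Arc rose most, with 30.3 and 14.5 RPKM in WT and Het of the 96-well plates and 118.7 and 113.1 RPKM in the 384-well plates (2.46 ± 0.32, limma adjusted p = 0.0278). Dusp1 had 3.6 and 1.7 RPKM against 12.6 and 7.9 RPKM (1.96 ± 0.15), and Nr4a1 27.3 and 21.3 RPKM against 81.03 and 86.5 RPKM (1.79 ± 0.18). Npas4 had 8.0 and 6.9 RPKM against 25.7 and 21.4 RPKM (1.64 ± 0.11), and Btg2 3.7 and 1.6 RPKM against 6.7 and 3.3 RPKM (0.94 ± 0.13). Of the 6 members that passed, the formats did not overlap for Arc, Dusp1, Nr4a1, Npas4 and Homer1, and they overlapped for Btg2. They did not overlap for Bdnf and Vgf either, which did not pass. The share of all genes without overlap was not counted. Homer1 fell, from 40.2 and 59.5 RPKM to 15.3 and 26.8 RPKM (-1.27 ± 0.13, limma adjusted p = 0.0255). With upper-quartile scaling, 6655 genes were higher and 5763 lower, the median of all genes was 0.04, and the same 6 members passed in the same directions. Averaging log2(RPKM + 1) over nuclei instead left Arc at 1.28 (limma adjusted p = 0.0573) and Btg2 at 0.20 (limma adjusted p = 0.0595).

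Immediate-early factors moved the same way as Arc. Of 11 AP-1 and Egr factors, 7 rose and none fell, with Fos at 2.38 ± 0.12 and Egr1 at 2.14 ± 0.40. In contrast, the other activity-induced genes were mixed (7 higher, 8 lower, with Per1 at 1.69 ± 0.18 and Pcsk1 at -1.75 ± 0.29), and upstream signalling genes were 7 higher and 10 lower, with the gene of CREB itself, Creb1, at -1.92 ± 0.11. Housekeeping genes had a median of -0.70, with 1 of 10 higher and 4 lower. The iTg and Het; iTg pools, which were not in this fit, had Arc at 85.1 and 88.3 RPKM and Homer1 at 24.1 and 31.8 RPKM.

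The study compared nuclei of Ehmt1delta/+ and WT mice, and here no member passed between the pools labelled Het and WT. With plate format in the fit, the 4 WT and Het pools without Cre left 1 residual degree of freedom, and 0% of 31326 genes passed limma with Benjamini-Hochberg adjustment, with or without a mean-variance trend. At an unadjusted p under 0.05 there were 1014 genes higher and 1542 lower. The median of the members was -0.18 against -0.03 for all genes.

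Homer1 was the member that lay higher in the pools labelled Het in all 3 pairs. The share of all genes with the same sign in all 3 pairs was not counted. In neurons it was 40.2 RPKM in WT and 59.5 RPKM in Het of the 96-well plates, 15.3 and 26.8 RPKM in the 384-well plates, and 24.1 RPKM in iTg and 31.8 RPKM in Het; iTg. The fitted difference of the WT and Het pools was 0.68 ± 0.13 (limma unadjusted p = 0.0171, adjusted p = 0.608), and in excitatory neurons alone 0.60 ± 0.13. The titles carry 4 codes in each of these 96-well pools, and the mean by code was 49.5 to 70.3 RPKM in Het and 35.1 to 46.2 RPKM in WT. As 3 of the codes occur in both pools, a code is neither a plate of its own nor a replicate. The share of inhibitory neurons was 24.5% and 25.6% in the WT pools and 16.2% and 16.99% in the Het pools, and its part in the result was not tested beyond the value within excitatory neurons. In inhibitory neurons Homer1 was not higher in Het of the 96-well plates, at 13.7 RPKM in WT and 12.97 RPKM in Het. It was 4.98 and 7.07 RPKM in WT and Het of the 384-well plates, and 5.24 and 10.2 RPKM in iTg and Het; iTg.

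Btg2 and Dusp1 lay lower in Het in both plate formats, but not in the pair with Cre. Btg2 was 3.7 and 1.6 RPKM in WT and Het of the 96-well plates and 6.7 and 3.3 RPKM in the 384-well plates, a difference of -1.08 ± 0.13 (limma unadjusted p = 0.00473, adjusted p = 0.608). Dusp1 was 3.6 and 1.7 RPKM, and 12.6 and 7.9 RPKM (-0.84 ± 0.15, limma unadjusted p = 0.0141, adjusted p = 0.608). In iTg and Het; iTg they were 2.5 and 3.2 RPKM, and 5.4 and 6.6 RPKM. Among the 384-well pools, both genes were highest in WT, which has a title code of its own. Code and genotype cannot be told apart in the 384-well WT and Het pair, for any member. Dusp1 was above 0 in 60.1% of neurons of WT, 96-well (53.8% to 66.2%, exact Clopper-Pearson interval at 95%, counting error only) and in 36.2% of those of Het, 96-well (30.4% to 42.3%), or 52.7% and 31.8% at equal depth. In the 384-well plates these shares were 56.1% and 51.6%. The intervals hold no spread between pools or mice, so they cannot say whether the genotypes differ.

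Arc was lower in Het of the 96-well plates (14.5 against 30.3 RPKM) and near equal in the 384-well plates (113.1 against 118.7 RPKM), giving -0.57 ± 0.32 (limma adjusted p = 0.693). By title code the mean was 10.7 to 17.3 RPKM in Het, 96-well, and 19.1 to 38.1 RPKM in WT, 96-well. Npas4 was lower in the Het member of all 3 pairs, by small margins: 6.9 against 8.0 RPKM, 21.4 against 25.7 RPKM and 14.2 against 15.7 RPKM (-0.24 ± 0.11, limma adjusted p = 0.663). The direction turned with the mean of log2(RPKM + 1) over nuclei (0.20), and Npas4 was above 0 in 73.1% and 75.1% of neurons of WT and Het, 96-well, and in 71.9% and 78.8% of those of the 384-well plates. Bdnf (0.02 ± 0.25), Nptx2 (-0.02 ± 0.31), Nr4a1 (-0.13 ± 0.18), Ptgs2 (0.19 ± 0.33) and Vgf (-0.46 ± 0.30) had differences of less than 2 SE.

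**Figure D4:**
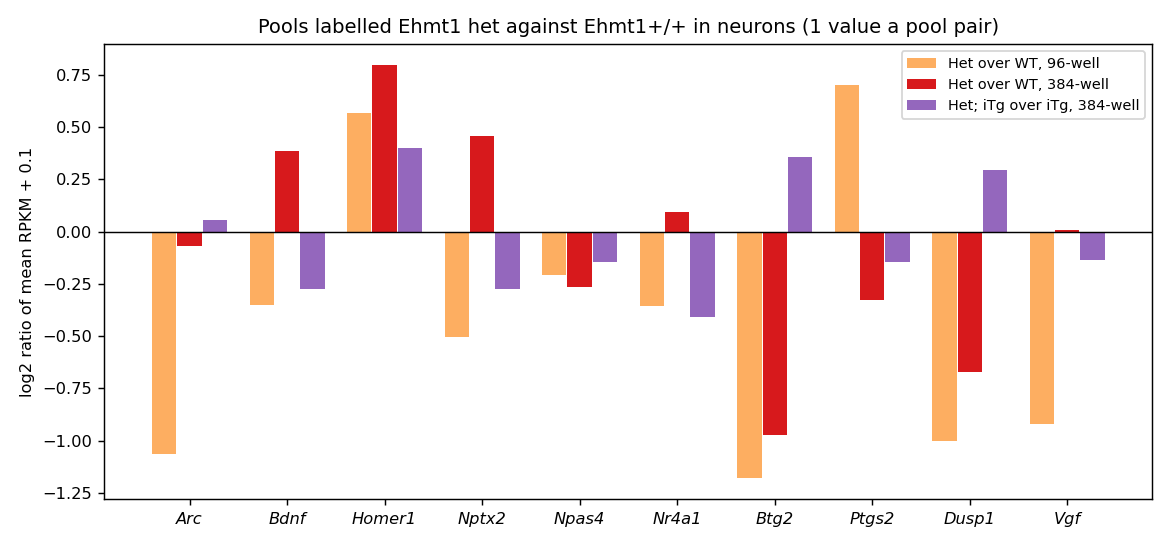
log2 ratio of mean RPKM + 0.1 in neurons of each pool labelled Het over its Ehmt1+/+ partner, with 1 bar for each of 3 pool pairs and no error bar because a pair is 1 value. Homer1 is above 0 in 3 of 3 pairs and Npas4 below 0 in 3 of 3, while Btg2 and Dusp1 change side in the pair with Cre. The share of all genes with the same sign in 3 of 3 pairs was not counted.

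Of 11 AP-1 and Egr factors none passed, and their median was -0.81. Egr1, the one with the highest level, was at -1.37 ± 0.40 (limma adjusted p = 0.608). In excitatory and in inhibitory neurons taken apart, 0% of genes passed as well, with 921 higher and 1372 lower in excitatory and 569 higher and 1034 lower in inhibitory neurons at an unadjusted p under 0.05.

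The transgene with Cre against without it, as the labels give the groups, over the 384-well pools with the Ehmt1 genotype as a block, also left 0% of 30533 genes past the threshold (385 higher and 533 lower at an unadjusted p under 0.05). Npas4 was 25.7 and 21.4 RPKM without and 15.7 and 14.2 RPKM with Cre (-0.65 ± 0.26, limma unadjusted p = 0.0659). Btg2 was at -0.72 ± 0.42, Dusp1 at -0.73 ± 0.35 and Homer1 at 0.45 ± 0.28 on the same scale. If the WT and Het pools carried CamKII-CreER, as the text of the study has it, this contrast would be one of the transgene and not of Cre. WT, 384-well, has a title code of its own and the 3 other pools share another, so code and group cannot be told apart for comparisons with WT, 384-well.

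Across excitatory neurons of a pool the members varied together to different degrees. These are descriptions over 1324 nuclei, taken within each pool, that share library steps. The pair with the highest Spearman correlation was Homer1 and Nr4a1 (median rho 0.551, 0.397 to 0.651 over 6 pools), then Arc and Nr4a1 (0.527) and Npas4 and Nr4a1 (0.522). Arc and Bdnf, both targets of synaptic activity, had a median of 0.008 (-0.016 to 0.354 over pools). Nptx2, Bdnf and Ptgs2 paired with one another (0.233 to 0.289) more than with Dusp1 (-0.005 to 0.128). They were not set apart from all other members, with Bdnf and Npas4 at 0.244 and Nptx2 and Vgf at 0.241. Correlations of a member with read depth lay between -0.178 and 0.254.

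**Figure D5:**
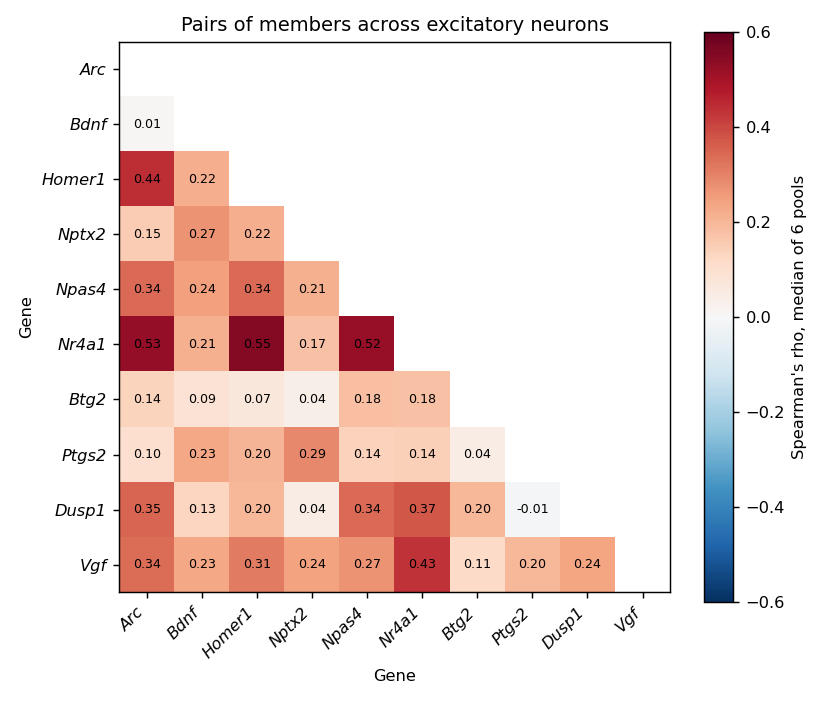
Median over 6 pools of Spearman's rho between each pair of members across excitatory neurons of a pool. Nr4a1 has the highest values, with Homer1 (0.55), Arc (0.53) and Npas4 (0.52), and the lowest value is Ptgs2 with Dusp1 at -0.005.

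Genes most like each member were sought among 11354 genes above 0 in at least 25% of excitatory neurons of every pool, by the lowest rho of the 6 pools. Nr4a1 was most like Per1, the circadian regulator that also responds to cyclic AMP (0.517 to 0.681). Arc was most like Cx3cl1, the neuronal chemokine fractalkine (0.356 to 0.447). Npas4 (0.337 to 0.474), Vgf (0.303 to 0.361) and Dusp1 (0.180 to 0.332) had Egr3 as their most like gene. The highest values were 0.245 to 0.430 for Bdnf with Phf21b, 0.253 to 0.460 for Nptx2 with Tacc1, 0.226 to 0.340 for Ptgs2 with Stard8, a gene of the layer II/III marker list, and 0.112 to 0.221 for Btg2 with Mas1.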

How the data were processed

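Single nuclei of frontal cortex were sequenced by RamDA-seq, 1 library per nucleus. The authors trimmed the reads, aligned them to mm10 with HISAT2 2.0.4, counted them per gene with featureCounts (Subread 1.5.0) on a Gencode annotation, and deposited RPKM values, which were used here as deposited. Depth per nucleus was not among the values and was inferred from the steps of RPKM times gene length. At the inferred step, 30.4% of values above 0 in the 96-well and 26.6% in the 384-well nuclei were not whole reads. Read numbers, thinning and correlations with depth rest on this inference, and intervals cover counting error only.

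RPKM was averaged over the nuclei of each pool and cell type label or class. Genes with a mean above 0.1 RPKM were fitted as log2(mean + 0.1) with limma 3.58.1 (R 4.3.3) and empirical Bayes, with Benjamini-Hochberg adjustment over all genes and a threshold of 0.05; fold changes of low genes are understated. Pool, plate format or Ehmt1 genotype was the block. The script was tested on simulated data. All 10 members were named in every comparison, and of other lists at most 4 called genes by fold, or the highest mean where none was called. The housekeeping gene that was higher and the gene most like Homer1 are not reported here. The members and lists were chosen with earlier results of these data known. Alternatives were another pseudocount, no filter, mean of logs, upper-quartile scaling, a trend, stricter neuron classes and leaving out pools; plate formats taken alone were added after seeing the data.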

Additional observations from a re-analysis of the deposited data

Results flagged for a closer look

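Some members had opposite signs in the pool pairs of the 2 plate formats, as log2 ratios of pools labelled Het over WT in neurons; each pair is 1 value and the difference was not tested. With the 96-well value first and the 384-well value second, Bdnf was at -0.35 and 0.38, and Nptx2 at -0.51 and 0.46. Nr4a1 was at -0.36 and 0.09, and Vgf at -0.92 and 0.01. Ptgs2 had the reverse order, 0.70 and -0.33. In excitatory neurons alone, Nr4a1 was below 0 in both formats (-0.35 and -0.04), whereas Bdnf, Nptx2, Vgf and Ptgs2 kept opposite signs.

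For the transgene with Cre over without it, Bdnf was at 0.42 in Ehmt1+/+ and -0.24 in Ehmt1delta/+ neurons, Nptx2 at 0.41 and -0.33, and Ptgs2 at -0.10 and 0.08. These differences were not tested either, with 1 pool on each side of a ratio.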

How the results depend on the processing

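No paired analysis was possible because replicate numbers only name nuclei in accession order, and the blocks in the fits are the pool, plate format or genotype. Each genotype and format had 1 pool, so the Het and transgene comparisons had 1 residual degree of freedom. Leaving out 1 pool gave 17738 to 18319 genes and 9 members against oligodendrocytes, 16309 to 16849 and 8 to 10 against microglia, 8419 to 9078 and 8 to 9 between neuron classes, 8762 to 9556 and 4 to 6 between layers, and 4254 to 5037 and 1 to 3 between interneuron classes (1 without WT or iTg, 384-well). The 96-well pools alone, added after seeing the data, gave 0 genes and 0 members between neuron classes, 998 and 0 between layers, and 0 and 0 between interneuron classes. The 384-well pools alone gave 6199, 6562 and 3460 genes, with 1 member between interneuron classes. Nuclei with only one of Slc17a7 and Gad1 above 0 gave 5977 genes, and the mean of logs 5 members between interneuron classes. Signs turned for Dusp1 against oligodendrocytes (-0.024 with upper-quartile scaling, -0.93 in 96-well pools) and microglia (-0.33 in 96-well pools), and between neuron classes in 96-well pools for Btg2 (-0.31) and Dusp1 (-0.16). For Het over WT neurons, Bdnf was -0.0072 with a pseudocount of 1, -0.0096 with the mean of logs and -0.080 over 6 pools, and Nptx2 0.0033 with upper-quartile scaling. With the mean of logs, Nptx2 was 0.067, Npas4 0.20 and Nr4a1 0.23 in neurons, Npas4 0.13 and Nr4a1 0.15 in excitatory and Nptx2 0.026 and Npas4 0.038 in inhibitory neurons. Homer1 was -0.055 in inhibitory neurons by the stricter classes. For the transgene, Bdnf was -0.047 with the mean of logs and Nptx2 -0.023 with upper-quartile scaling, and between formats Nptx2 was -0.11 with the mean of logs. The cause of these turns was not tested. The share of calls that were higher moved from 75.7% to 62.8% (upper quartile) and 89.8% (mean of logs) against oligodendrocytes, from 73.5% to 69.04% and 85.6% against microglia, and from 28.8% to 53.6% and 23.1% between formats.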
